A study of Arabidopsis thaliana with 22 samples.

Results

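ABI1 (AT4G26080), HAB2 (AT1G17550) and PP2CA (AT3G11410) encode group A protein phosphatases 2C (PP2C), the phosphatases that hold back abscisic acid (ABA) signaling. Their transcripts were followed in leaves of 4 genotypes with and without ABA. The 3 genes were found by their probe set identifiers, 13489713 for ABI1, 13341443 for HAB2 and 13447825 for PP2CA, in the study's table of transcripts changed by ABA in wild type, and are 3 of the 38408 probe sets measured. Of the 9 group A PP2C genes of Arabidopsis, these 3 could be named here, and the other 6 were not analysed here. Because that table names the members only through their change in wild type, the wild type response is given below as a description, without a test.

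ABA is the hormone with which plants close stomata and adjust gene expression in drought. In its absence group A PP2Cs dephosphorylate SnRK2 kinases, among them OST1, and keep them inactive. ABA bound to PYR/PYL/RCAR receptors inhibits the phosphatases, and the released kinases phosphorylate bZIP transcription factors and guard cell ion channels. The transcripts of several group A PP2Cs are themselves known to accumulate after ABA, which is regarded as a negative feedback. ABI1 is the phosphatase whose dominant mutation gave the ABA insensitive abi1-1 plants, HAB2 is a close relative of the phosphatase HAB1, and PP2CA, also called AHG3, is known for its strong effect on the ABA response of seeds.

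The study asked how mutation of SAL1, the phosphatase that breaks down the chloroplast signal PAP, alters ABA responses in plants with a mutation in OST1. Wild type was the F1 hybrid of the ecotypes Col-0 and Ler, sal1-8 was in Col-0, ost1-2 was in Ler, and ost1-2 sal1-8 was obtained from their cross. Each genotype was mock treated or sprayed with 20 µM ABA, and RNA came from single leaves. This gave 8 groups with 3 arrays each, except the mock and ABA groups of ost1-2 with 2 arrays each, 22 arrays in all. The labels give 45 min of ABA for the samples but 2 h in the protocol, and an age of 30 days for every plant. A difference between genotypes therefore also holds differences between ecotypes, and the 2 cannot be told apart. Arrays are named here by the number in their label, and stretches of neighbouring numbers with the same treatment were taken as runs.

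Levels are log2 fluorescence intensities, so a difference of 1 is a 2-fold change in intensity. A whole leaf was measured, and more transcript per cell cannot be told apart from more cells that hold it. The array medians lay between 4.60 and 4.998, and the mean r of an array with its own group ran from 0.96 to 0.98. Over the 22 arrays the mean level was 8.69 for ABI1, 9.12 for PP2CA and 6.25 for HAB2, above 92.4%, 94.5% and 68.7% of all probe sets. The pooled SD within groups was 0.38 for ABI1, 0.38 for PP2CA and 0.31 for HAB2, beside a median of 0.29 over all probe sets. Of 21 marker genes of mesophyll, guard cells, vasculature, epidermis and roots, 1 could be named, FAMA, a transcription factor of the guard cell lineage, so the tissue label could not be checked by its defining markers.

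ABI1 was low in mock-treated leaves of wild type, of sal1-8 and of the double mutant and high in the same genotypes after ABA, whereas in ost1-2 it was intermediate with and without ABA. In wild type ABI1 stood at 7.13, 7.89 and 7.87 on mock arrays 130, 114 and 105 and at 9.72, 9.80 and 10.50 on ABA arrays 134, 126 and 118. In sal1-8 it stood at 7.41, 7.54 and 7.21 on mock arrays 131, 115 and 106 and at 9.96, 9.92 and 10.02 on ABA arrays 135, 127 and 110. The lowest ABA array exceeded the highest mock array by 1.84 in wild type and 2.39 in sal1-8, and the 3 sal1-8 ABA arrays lay within 0.09 of each other. In ost1-2 the mock arrays 116 and 107 had 8.33 and 9.11, and the ABA arrays 136 and 120 had 8.19 and 8.87. In the double mutant the mock arrays 133, 117 and 108 had 8.07, 6.97 and 7.28, and the ABA arrays 129, 121 and 113 had 9.84, 9.73 and 9.76. The mock and ABA arrays of ost1-2 overlapped, those of the double mutant did not, and no ost1-2 array reached an ABA array of another genotype.

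PP2CA showed the same arrangement with a wider span. In wild type it stood at 7.67, 8.06 and 8.26 after mock treatment and at 10.78, 10.43 and 10.97 after ABA, the arrays being in the order given for ABI1. In sal1-8 the mock arrays had 7.19, 7.21 and 6.98, below each wild type mock array, and the ABA arrays had 10.45, 10.50 and 10.30. Both genotypes were thus separated by ABA without overlap. In ost1-2 PP2CA was at 9.29 and 9.65 on the mock arrays, above each mock array of the other genotypes, and at 9.09 and 9.81 on the ABA arrays. In the double mutant it was at 8.41, 6.86 and 7.40 on the mock arrays and at 10.50, 10.58 and 10.35 on the ABA arrays. The mock arrays of the double mutant were spread over 1.55 log2 units and its ABA arrays over 0.23.

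HAB2 was the dimmest of the 3 and had the smallest span. In wild type it stood at 5.72, 5.91 and 5.74 on the mock arrays and at 7.29, 7.31 and 7.62 on the ABA arrays, and in sal1-8 at 5.45, 5.66 and 5.55 and at 6.73, 6.98 and 6.70. All 3 sal1-8 ABA arrays were above the mock arrays and below the wild type ABA arrays. In ost1-2 HAB2 was at 6.30 and 6.67 after mock treatment and at 5.995 and 6.27 after ABA, so that both ABA arrays were below both mock arrays. In the double mutant it was at 5.80, 4.64 and 5.54 after mock treatment and at 6.999, 6.39 and 6.19 after ABA. Mock array 117 of the double mutant was the lowest of all 22 arrays for HAB2 and also for ABI1 and PP2CA.

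**Figure D1:**
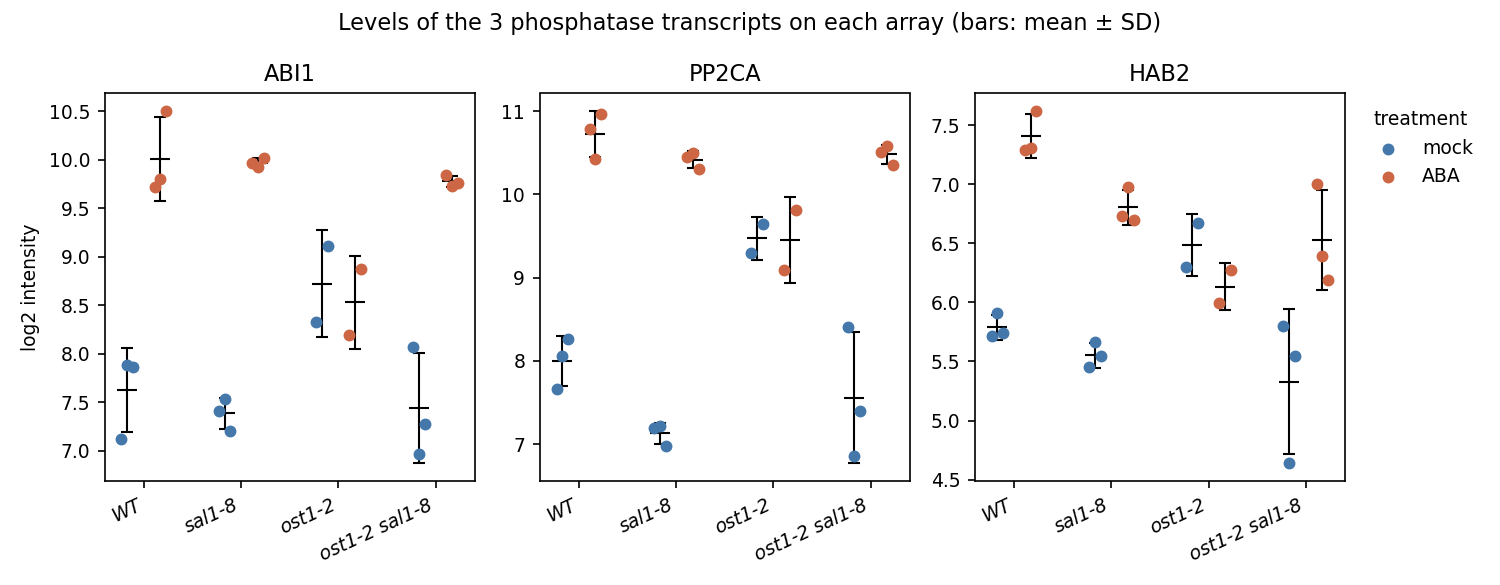
Level of ABI1, PP2CA and HAB2 on each array (y axis, log2 intensity, a scale of its own for each gene) by genotype (x axis), with a point per array, mock in blue and ABA in orange, and the group mean with its SD (n = 3, or 2 in ost1-2). For ABI1 and PP2CA the mock and ABA points are far apart in 3 genotypes. In ost1-2 both lie between those extremes, for example at means of 8.72 and 8.53 for ABI1. For HAB2 the ost1-2 points overlap with the ABA points of ost1-2 sal1-8. In that double mutant the lowest HAB2 ABA point is 0.385 above the highest mock point.

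Ordered by group means, wild type after ABA was highest for all 3 transcripts and the mock groups of sal1-8 and of the double mutant were lowest. For ABI1 the order was wild type ABA (10.01 ± 0.43, SD, n = 3), sal1-8 ABA (9.97 ± 0.05, n = 3), double mutant ABA (9.78 ± 0.06, n = 3), ost1-2 mock (8.72 ± 0.55, n = 2), ost1-2 ABA (8.53 ± 0.48, n = 2), wild type mock (7.63 ± 0.43, n = 3), double mutant mock (7.44 ± 0.57, n = 3) and sal1-8 mock (7.39 ± 0.16, n = 3). The 95% interval of the difference between neighbours excluded 0 at only 2 places, between double mutant ABA and ost1-2 mock (1.06, from 0.37 to 1.74) and between ost1-2 ABA and wild type mock (0.91, from 0.22 to 1.59). Within the 3 levels that these steps separate, the arrays of neighbouring groups overlapped except between sal1-8 ABA and double mutant ABA, which differed by 0.19 (from -0.42 to 0.81). The wild type arrays took part in the pick of the genes, so the step down to wild type mock is a description. The intervals were not adjusted for the number of steps.

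PP2CA followed the order wild type ABA (10.72 ± 0.27, n = 3), double mutant ABA (10.48 ± 0.11, n = 3), sal1-8 ABA (10.42 ± 0.10, n = 3), ost1-2 mock (9.47 ± 0.25, n = 2), ost1-2 ABA (9.45 ± 0.51, n = 2), wild type mock (7.99 ± 0.30, n = 3), double mutant mock (7.56 ± 0.79, n = 3) and sal1-8 mock (7.13 ± 0.13, n = 3). The steps whose interval excluded 0 were again those above ost1-2 mock (0.95, from 0.26 to 1.63) and below ost1-2 ABA (1.46, from 0.77 to 2.14). For HAB2 the order was wild type ABA (7.41 ± 0.18, n = 3), sal1-8 ABA (6.80 ± 0.15, n = 3), double mutant ABA (6.53 ± 0.42, n = 3), ost1-2 mock (6.49 ± 0.26, n = 2), ost1-2 ABA (6.13 ± 0.20, n = 2), wild type mock (5.79 ± 0.10, n = 3), sal1-8 mock (5.55 ± 0.10, n = 3) and double mutant mock (5.33 ± 0.61, n = 3). Here the single step with an interval without 0 was the first, from wild type ABA to sal1-8 ABA (0.60, from 0.08 to 1.13). That step and the PP2CA step down to wild type mock use wild type arrays that took part in the pick, so both are a description. The HAB2 difference between sal1-8 and wild type after ABA was not called (limma adjusted p = 0.105). HAB2 in the double mutant after ABA and in mock-treated ost1-2 differed by 0.04 (from -0.55 to 0.63).

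The first question was whether ABA raised the 3 phosphatases in each genotype. After ABA, all 3 rose in sal1-8 and in the double mutant, and none was called in ost1-2. In wild type, where the genes were picked, the log2 changes were 2.38 ± 0.29 for ABI1 (SE of the fit, n = 3 and 3), 2.73 ± 0.29 for PP2CA and 1.62 ± 0.25 for HAB2, or 5.21, 6.64 and 3.07-fold, and 3.99% of all probe sets were called higher there. A transcript was called at a Benjamini-Hochberg adjusted p under 0.05 by limma, over all 38408 probe sets, and a fold change above 1.5. In sal1-8, 3 of 3 were called higher beside 0.805% of all probe sets (1.14% with each array centred on its median, 0.961% after a further quantile normalization). ABI1 rose by 2.58 ± 0.29 (5.99-fold, adjusted p = 0.000121), PP2CA by 3.29 ± 0.29 (9.77-fold, adjusted p = 5.78e-06) and HAB2 by 1.25 ± 0.25 (2.38-fold, adjusted p = 0.0163). The members come from a table of transcripts changed by ABA in wild type. Counts of members beside all probe sets, in this and the other genotypes, are therefore a description.

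In ost1-2 sal1-8, 3 of 3 were likewise called higher, beside 0.807% of all probe sets. PP2CA rose by 2.92 ± 0.29 (7.59-fold, adjusted p = 3.76e-05), ABI1 by 2.34 ± 0.29 (5.06-fold, adjusted p = 0.000305) and HAB2 by 1.20 ± 0.25 (2.29-fold, adjusted p = 0.0218). In ost1-2, 0 of 3 were called, beside 0.0104% of all probe sets called higher, which was 4 of 38408, with 8 called lower and 2990 at an unadjusted p under 0.05. The changes in ost1-2 were -0.19 ± 0.36 for ABI1 (adjusted p = 0.951, 95% interval from -0.94 to 0.57), -0.02 ± 0.36 for PP2CA (adjusted p = 0.997, from -0.77 to 0.74) and -0.35 ± 0.31 for HAB2 (adjusted p = 0.849, from -0.99 to 0.29). With 2 arrays per group these intervals still allow a rise of up to 0.57, 0.74 and 0.29, all below the lower bounds of the changes in sal1-8 (1.97, 2.67 and 0.73) and in ost1-2 sal1-8 (1.72, 2.31 and 0.67).

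The calls of ABI1 and PP2CA in sal1-8 and in the double mutant held whichever array was left out, and those of HAB2 did not. In sal1-8 the HAB2 call was lost without mock array 131 (1.20, adjusted p = 0.0753) or 106 (1.25, adjusted p = 0.0793) and without ABA array 135 (1.29, adjusted p = 0.0524) or 127 (1.16, adjusted p = 0.103). In ost1-2 sal1-8 it was lost without mock array 117 (0.85, adjusted p = 0.121) and without ABA array 129 (0.96, adjusted p = 0.108) or 121 (1.26, adjusted p = 0.0549), and in a fit of only the 2 groups compared (adjusted p = 0.265). FAMA, the single marker that could be named and itself in the table of transcripts changed in wild type, differed by -1.19 between ABA and mock in wild type, -0.18 in sal1-8, 0.16 in ost1-2 and -0.21 in the double mutant, and its part in these results was not tested.

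**Figure D2:**
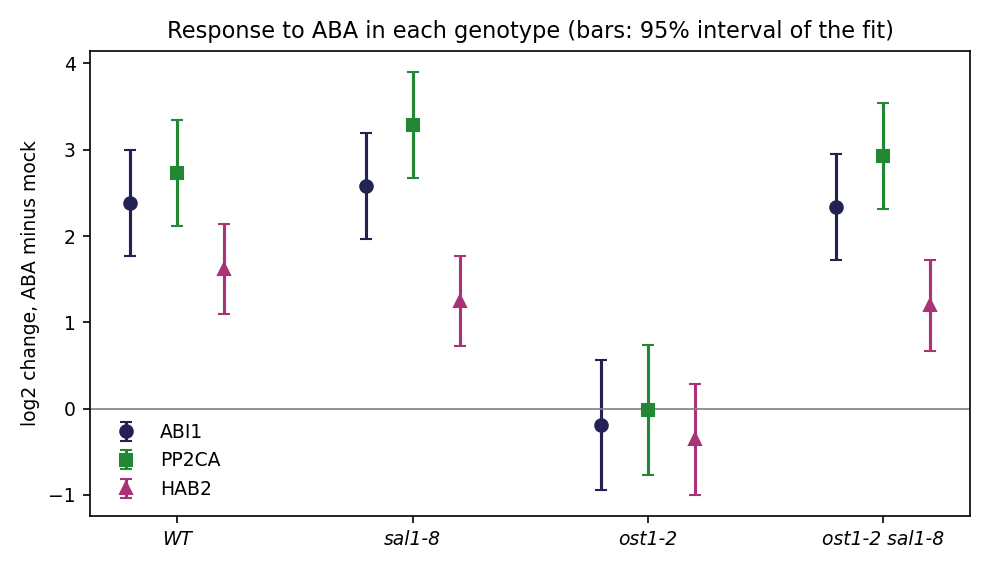
Response to ABA (y axis, log2 change, ABA minus mock) in each genotype (x axis) for ABI1, PP2CA and HAB2, with the 95% interval of the fit as bars. In ost1-2 all 3 intervals include 0. Those of sal1-8 and of the double mutant all lie above 0, the lowest bound being 0.67 for HAB2 in the double mutant. The wild type intervals are shown as a description, because the genes were picked by their change in wild type.

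The size of the response was then set against that of wild type. As a share of the wild type log2 change, that of ABI1 was 108% in sal1-8, 98.1% in ost1-2 sal1-8 and -7.92% in ost1-2. For PP2CA the shares were 120%, 107% and -0.63%, and for HAB2 77.2%, 74.0% and -21.8% in the same order. Since the wild type change served to pick the genes, it may be drawn large and these shares low. The differences between the wild type and sal1-8 responses were -0.20 for ABI1 (95% interval from -1.07 to 0.67), -0.56 for PP2CA (from -1.43 to 0.31) and 0.37 for HAB2 (from -0.37 to 1.11), with 0 of 3 called beside 0.0781% of all probe sets called in either direction. Between wild type and ost1-2 sal1-8 they were 0.04 for ABI1 (from -0.83 to 0.92), -0.19 for PP2CA (from -1.06 to 0.68) and 0.42 for HAB2 (from -0.32 to 1.16), with 0 of 3 called beside 0.0469%. Adjusted p-values for these 6 differences ran from 0.753 to 0.984, and the intervals leave room for unequal responses.

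The response of ost1-2 was smaller than that of wild type for 3 of 3 members, beside 1.74% of all probe sets called in that direction (2.35% with each array centred on its median). The response in wild type exceeded that in ost1-2 by 2.57 ± 0.46 for ABI1 (adjusted p = 0.00878), 2.75 ± 0.46 for PP2CA (adjusted p = 0.00581) and 1.97 ± 0.39 for HAB2 (adjusted p = 0.0154). These differences rest in part on the wild type change by which the genes were picked, which favours a positive difference, so their p-values are not independent evidence. The calls of all 3 were lost without ost1-2 ABA array 136 (2.23, 2.39 and 1.83, with adjusted p = 0.0758, 0.0586 and 0.0938) and those of ABI1 and HAB2 without ost1-2 mock array 107 (2.18 and 1.78, with adjusted p = 0.0664 and 0.0904). ABI1 also lost its call in a fit of the 4 groups alone (adjusted p = 0.0792).

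The log2 difference between the responses of ost1-2 sal1-8 and ost1-2 uses no wild type array. Its SE and p-values do, because all 8 groups share an estimate of the spread. The response of the double mutant exceeded that of ost1-2 for ABI1 and PP2CA, 2 of 3 members, beside 0.13% of all probe sets. The excess was 2.53 ± 0.46 for ABI1 (adjusted p = 0.0396), 2.94 ± 0.46 for PP2CA (adjusted p = 0.0157) and 1.55 ± 0.39 for HAB2 (adjusted p = 0.169, 95% interval from 0.72 to 2.38). It joins a lower mean mock level and a higher mean level after ABA in the double mutant, both given below. PP2CA lost its call without ost1-2 mock array 107 (2.76, adjusted p = 0.0867) or ABA array 136 (2.58, adjusted p = 0.173), and both genes lost it in a fit of the 4 groups alone (adjusted p = 0.118 for ABI1 and 0.108 for PP2CA) and with the run as a fixed block (2.51, adjusted p = 0.164, and 3.13, adjusted p = 0.0864), an alternative chosen after the data were seen. ABI1 kept its call without 2 of the 10 arrays, ost1-2 mock 116 and double mutant mock 133. It lost the call without ost1-2 mock 107 (2.14), ost1-2 ABA 136 (2.19) or 120 (2.87), double mutant mock 117 (2.29) or 108 (2.45), or double mutant ABA 129 (2.49), 121 (2.55) or 113 (2.53), at adjusted p from 0.0524 to 0.306.

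The second question was whether the genotypes differed before ABA. Mock-treated ost1-2 leaves had more PP2CA than wild type, by 1.47 ± 0.33 (2.78-fold, adjusted p = 0.0346), and this was 1 of 3 members called higher, beside 0.427% of all probe sets. ABI1 differed by 1.09 ± 0.33 (2.14-fold, adjusted p = 0.142) and HAB2 by 0.70 ± 0.28 (1.62-fold, adjusted p = 0.324), and neither was called. For each of the 3 genes both ost1-2 mock arrays lay above all 3 wild type mock arrays. The wild type mock arrays took part in the pick of the genes, which favours higher values elsewhere. The PP2CA p-value is therefore not independent evidence. On a scale from wild type mock to wild type ABA, mock-treated ost1-2 stood at 46.0% for ABI1, 54.0% for PP2CA and 43.2% for HAB2, and ABA-treated ost1-2 at 38.0%, 53.4% and 21.4%. Both ends of this scale are groups that took part in the pick. The PP2CA call was lost without wild type mock array 130 (1.31, adjusted p = 0.116) or 114 (1.51, adjusted p = 0.0599), without ost1-2 mock array 116 (1.65, adjusted p = 0.115) or 107 (1.30, adjusted p = 0.337), with array weights (1.39, adjusted p = 0.0612), with the label number run as a fixed block (1.57, adjusted p = 0.0677) and in a fit of the 2 groups alone (adjusted p = 0.182).

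Mock-treated leaves of sal1-8 and of the double mutant had no member called against wild type. In sal1-8 the differences from wild type were -0.24 ± 0.29 for ABI1 (adjusted p = 0.606), -0.87 ± 0.29 for PP2CA (adjusted p = 0.0505) and -0.23 ± 0.25 for HAB2 (adjusted p = 0.548), with 14.8% of all probe sets called in either direction. PP2CA lay close to the threshold and was called in 8 of 16 alternatives, at adjusted p from 0.0231 to 0.156, among them the fit without wild type mock array 130 (-1.03, adjusted p = 0.0332). In ost1-2 sal1-8 they were -0.19 ± 0.29 for ABI1 (adjusted p = 0.743), -0.44 ± 0.29 for PP2CA (adjusted p = 0.375) and -0.46 ± 0.25 for HAB2 (adjusted p = 0.269), beside 10.6% of all probe sets. Without mock array 133 of the double mutant, which stood highest of its group for all 3 genes, PP2CA differed by -0.86 and was called (adjusted p = 0.0314).

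Against ost1-2, mock-treated ost1-2 sal1-8 leaves had less of all 3 transcripts, called lower for 3 of 3 beside 4.47% of all probe sets (9.7% with each array centred on its median, 6.49% after a further quantile normalization). PP2CA was lower by 1.91 ± 0.33 (log2 change -1.91, 3.77-fold, adjusted p = 0.000767), ABI1 by 1.28 ± 0.33 (log2 change -1.28, 2.43-fold, adjusted p = 0.015) and HAB2 by 1.16 ± 0.28 (log2 change -1.16, 2.23-fold, adjusted p = 0.0102). Both ost1-2 mock arrays were above all 3 double mutant mock arrays for each gene. Against sal1-8 the double mutant differed by 0.05 ± 0.29 for ABI1, 0.43 ± 0.29 for PP2CA and -0.22 ± 0.25 for HAB2, 0 of 3 called beside 2.17% of all probe sets (adjusted p from 0.638 to 0.97). The calls against ost1-2 were lost in a fit of the 2 groups alone (adjusted p = 0.0962 for ABI1, 0.0504 for PP2CA and 0.106 for HAB2). ABI1 also lost its call without ost1-2 mock array 107 (-0.89, adjusted p = 0.226) and without double mutant mock array 117 (-1.05, adjusted p = 0.0692) or 108 (-1.20, adjusted p = 0.0518), and HAB2 without array 107 (-0.97, adjusted p = 0.131).

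The last comparison was that of the levels reached after ABA. All 3 transcripts were lower in ost1-2 than in wild type, 3 of 3 called beside 2.4% of all probe sets (3.15% with each array centred on its median). The log2 changes were -1.48 ± 0.33 for ABI1 (2.78-fold, adjusted p = 0.0139), -1.27 ± 0.33 for PP2CA (2.42-fold, adjusted p = 0.0276) and -1.27 ± 0.28 for HAB2 (2.42-fold, adjusted p = 0.0132), and no ost1-2 array overlapped with wild type. All 3 calls were lost without wild type ABA array 118 (-1.23, -1.15 and -1.17), the highest of its group for each gene, without ost1-2 ABA array 136 (-1.14, -0.91 and -1.13) and in a fit of the 2 groups alone, at adjusted p from 0.0561 to 0.317. PP2CA and HAB2 also lost theirs without ost1-2 ABA array 120 (-1.63, adjusted p = 0.0586, and -1.41, adjusted p = 0.0674). The wild type ABA arrays took part in the pick of the genes, which favours lower values elsewhere.

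ABA-treated ost1-2 sal1-8 leaves held less HAB2 than wild type, with a log2 change of -0.88 ± 0.25 (1.84-fold, adjusted p = 0.018), which was 1 of 3 members called lower, beside 6.15% of all probe sets (11.6% with each array centred on its median, 8.86% after a further quantile normalization). ABI1 differed by -0.23 ± 0.29 (adjusted p = 0.645) and PP2CA by -0.25 ± 0.29 (adjusted p = 0.622). The HAB2 call was lost without wild type ABA array 118 (-0.77, adjusted p = 0.079), without double mutant ABA array 121 (-0.81, adjusted p = 0.0634) or 113 (-0.71, adjusted p = 0.0867), with the number run as a fixed block (-0.84, adjusted p = 0.057) and in a fit of the 2 groups alone (adjusted p = 0.0629). In sal1-8 the differences from wild type were -0.04 ± 0.29 for ABI1 (adjusted p = 0.946), -0.31 ± 0.29 for PP2CA (adjusted p = 0.5) and -0.60 ± 0.25 for HAB2 (adjusted p = 0.105), 0 of 3 called beside 15.6% of all probe sets. HAB2 was called there once each array was centred on its median (-0.75, adjusted p = 0.036). Here too the wild type ABA arrays took part in the pick of the genes, which favours lower values elsewhere. The HAB2 p-values against wild type are therefore not independent evidence.

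Between the ABA-treated double mutant and sal1-8, 0 of 3 were called beside 2.91% of all probe sets, with differences of -0.19 for ABI1 (95% interval from -0.81 to 0.42), 0.06 for PP2CA (from -0.55 to 0.68) and -0.28 for HAB2 (from -0.80 to 0.25). Between the ABA-treated double mutant and ost1-2, ABI1 was higher in the double mutant by 1.24 ± 0.33 (2.37-fold, adjusted p = 0.0239), 1 of 3 called beside 5.27% of all probe sets (4.33% with each array centred on its median). PP2CA differed by 1.03 ± 0.33 (2.04-fold, adjusted p = 0.0626) and HAB2 by 0.39 ± 0.28 (adjusted p = 0.471), and for HAB2 the arrays 121 and 113 of the double mutant lay between 6.19 and 6.39, beside 5.995 and 6.27 in ost1-2. PP2CA was called among the 14000 brightest probe sets (adjusted p = 0.0385) and with array weights (adjusted p = 0.0222). ABI1 kept its call without ost1-2 ABA array 120 and lost it without ost1-2 ABA array 136 (0.90, adjusted p = 0.296) or double mutant ABA array 129 (1.21, adjusted p = 0.0614), 121 (1.27, adjusted p = 0.0516) or 113 (1.25, adjusted p = 0.0534), with arrays centred on their median (1.13, adjusted p = 0.0561) and with the number run as a fixed block (1.20, adjusted p = 0.11).

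The 3 transcripts also varied together from array to array. Over the 22 arrays Pearson's r was 0.97 between ABI1 and PP2CA, 0.91 between ABI1 and HAB2 and 0.91 between PP2CA and HAB2, as a description of arrays that share the 8 groups. After the mean of its group was taken from each array, r was 0.87, 0.66 and 0.72 for the same pairs. The mean deviation of the 3 genes was highest on array 133 (0.65) and lowest on array 117 (-0.62), both mock arrays of the double mutant, and array 108 of that group was at -0.03. In ost1-2 the mock arrays 107 and 116 deviated by 0.25 and -0.25 and the ABA arrays 120 and 136 by 0.28 and -0.28. In sal1-8 the deviations of the 6 arrays lay between -0.11 and 0.11. The consensus correlation within these runs of label numbers was 0.01 over all probe sets. Each run holds only mock or only ABA arrays, so the run as a fixed block could not be fitted to the ABA responses.

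**Figure D3:**
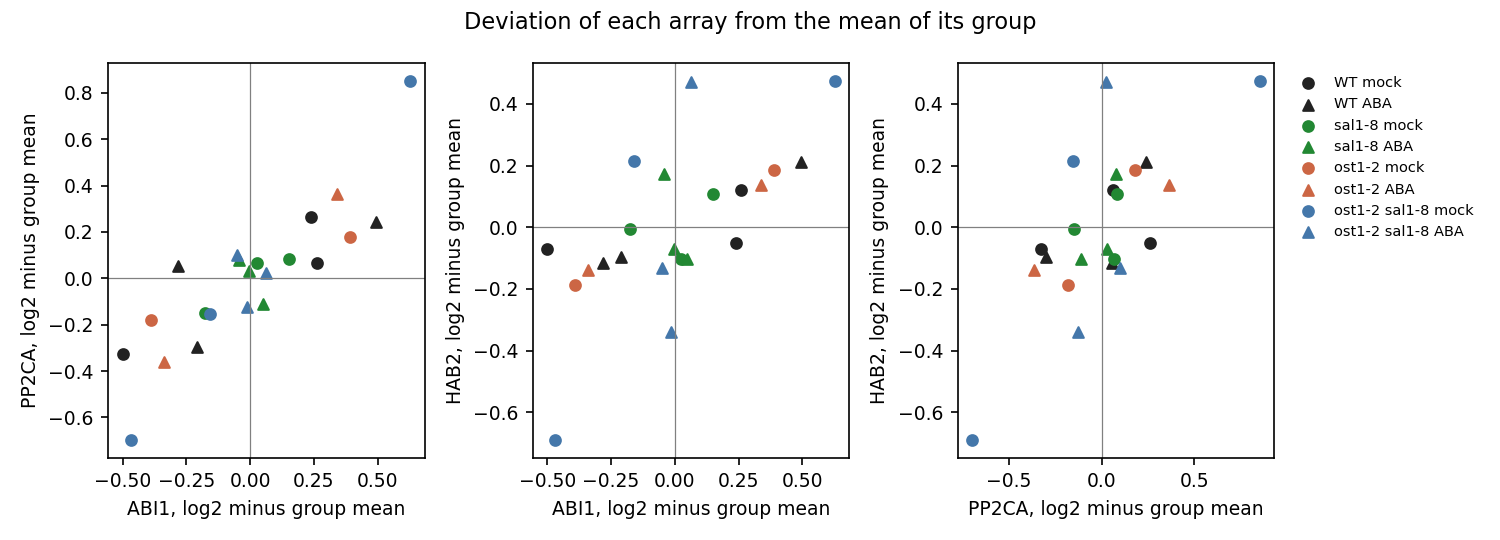
Deviation of each array from the mean of its group (both axes, log2 units) for the 3 pairs of genes, with circles for mock, triangles for ABA and a colour per genotype. Mock arrays 133 and 117 of ost1-2 sal1-8 lie at opposite ends for each pair, at mean deviations of 0.65 and -0.62, and the sal1-8 arrays stay near the centre.

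Other genes of the pathway were taken from lists, of which few members could be named here, and only their responses to ABA are given. Among the 14 ABA receptors, which inhibit the phosphatases when ABA is bound, 2 could be named, PYL4 and PYL8, both in the table of transcripts changed in wild type. Their counts beside all probe sets are therefore a description. PYL4 fell by 2.97 in sal1-8 (adjusted p = 0.00084) and dropped by 2.48 in ost1-2 sal1-8 (adjusted p = 0.00436), while its change was -0.52 in ost1-2 (adjusted p = 0.87) and -2.98 in wild type. PYL8 fell by 1.04 in ost1-2 sal1-8 (adjusted p = 0.0398), with changes of -0.78 in sal1-8 (adjusted p = 0.142), -0.48 in ost1-2 (adjusted p = 0.741) and -1.23 in wild type. In response to ABA 1 of these 2 was called lower in sal1-8, beside 0.424% of all probe sets (0.247% with each array centred on its median, 0.307% after a further quantile normalization), 2 of 2 in ost1-2 sal1-8 beside 0.315%, and 0 of 2 in ost1-2 beside 0.0208%. Of 10 SnRK2 kinases, the targets of the phosphatases, 0 could be named. Of 5 bZIP factors phosphorylated by SnRK2 kinases, 1 could be named, ABF2, which rose by 1.39 in sal1-8 (adjusted p = 0.00359) and 1.33 in ost1-2 sal1-8 (adjusted p = 0.00525) and had a change of 0.21 in ost1-2 (adjusted p = 0.92) and 1.87 in wild type. ABF2 is also in the table of transcripts changed in wild type.

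Of 9 genes of ABA synthesis and breakdown, 2 could be named, and 0 of these were called in the response of sal1-8, ost1-2 or the double mutant, beside the shares of all probe sets given above (0.805%, 0.0104% and 0.807% higher). CYP707A3, an ABA 8'-hydroxylase that breaks ABA down, had log2 changes of 1.74 in wild type, 0.57 in sal1-8, 0.28 in ost1-2 and 0.79 in the double mutant. NCED3, which catalyses a key step of ABA synthesis, had log2 changes of 1.57, 1.26, -1.22 and 1.62 in the same order. Of 6 guard cell channels 2 could be named, and 0 of these were called in the same 3 responses. GORK, a potassium channel of guard cells through which potassium leaves, had log2 changes of 1.76 in wild type, -0.02 in sal1-8, -0.02 in ost1-2 and -0.10 in the double mutant. SLAH3, an anion channel, had log2 changes of 1.69, 1.11, 0.21 and 0.75 in the order wild type, sal1-8, ost1-2 and double mutant. CYP707A3, NCED3, GORK and SLAH3, like ABF2, were named through the table of transcripts changed in wild type. Their wild type changes may therefore be drawn large, and the values of the genotypes side by side are a description.

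Of PP2C genes outside group A, 6 could be recognised by name, 5 of them in the table of transcripts changed in wild type. That table was picked on the wild type response, so the counts and medians below are a description. PP2C genes not recognised by name were left out. In response to ABA 2 of 6 were called higher in sal1-8, 2 of 6 in ost1-2 sal1-8 and 0 of 6 in ost1-2, beside 0.805%, 0.807% and 0.0104% of all probe sets, and 0 of 6 were called lower, beside 0.424%, 0.315% and 0.0208%, with medians of 0.86, 0.86 and -0.21 beside medians of -0.06, -0.01 and -0.0027 over all probe sets. AT3G05640 rose by 1.87 in sal1-8 (adjusted p = 0.000884) and by 2.12 in ost1-2 sal1-8 (adjusted p = 0.000276), and its changes were -0.56 in ost1-2 and 1.99 in wild type. AT5G27930 rose by 1.40 in the double mutant (adjusted p = 0.00907) and had a change of 0.93 in sal1-8 (adjusted p = 0.102), -0.09 in ost1-2 and 1.46 in wild type. AT3G62260 rose by 0.96 in sal1-8 (adjusted p = 0.0238) and had a change of 0.81 in the double mutant (adjusted p = 0.0633), -0.55 in ost1-2 and 1.03 in wild type. The changes of DBP1 were 1.96 in wild type, 0.64 in sal1-8, 0.13 in ost1-2 and 0.90 in the double mutant, and those of AT4G31860 were 1.12, 0.80, -0.16 and 0.11. PIA1, the 1 of the 6 not in that table, had changes of 0.15, 0.24, -0.27 and 0.03.

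**Figure D4:**
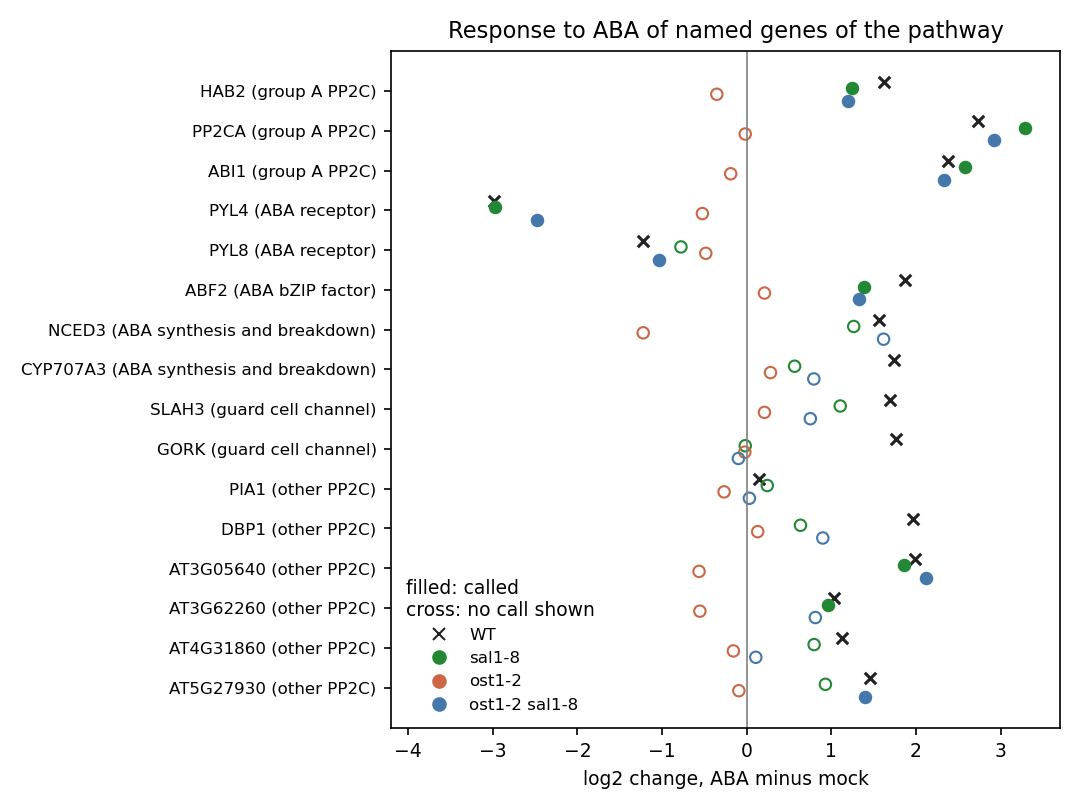
Response to ABA (x axis, log2 change, ABA minus mock) of ABI1, PP2CA, HAB2 and the named genes of the pathway (y axis), with a colour per genotype. Filled circles were called (adjusted p under 0.05 and fold above 1.5), open circles were not, and crosses give wild type, for which no call is shown because the genes were picked there. The ost1-2 circles of ABI1, PP2CA and HAB2 lie at -0.19, -0.02 and -0.35.

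The transcripts whose levels ran most like those of the phosphatases were sought by Pearson's r over the 22 arrays among 17245 probe sets of a single named gene, as a description. For ABI1 they were AFP1 (r = 0.98), a protein that binds the bZIP factor ABI5, the homeobox gene HB-7 (r = 0.97), the NAC gene NAC032 (r = 0.96) and AT4G33467 (r = 0.96). For PP2CA they were AFP1 (r = 0.98), AT1G73390 (r = 0.97), the NAC gene RD26 (r = 0.97) and AT1G73480 (r = 0.96). For HAB2 they were AT4G33467 (r = 0.94), AT1G79520 (r = 0.93), AT5G04250 (r = 0.93) and AT4G12000 (r = 0.93). All of these except AT1G79520 are in the table of transcripts changed in wild type. AFP1 was most like both ABI1 and PP2CA, and AT4G33467 was among the 4 most like ABI1 and HAB2.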

How the data were processed

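Leaf RNA of 22 samples in 8 groups was measured on Affymetrix Arabidopsis Gene 1.0 ST arrays. The authors deposited log2 values of 38408 probe sets, made by robust multi-array averaging (background correction, quantile normalization, median polish) with oligo in R 3.1.0. All 22 columns were used and 0 belonged to other samples. The array annotation gives a single gene for 16722 probe sets. The 3 members are named by the study's table of transcripts changed by ABA in wild type, of which 1145 rows were held.

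With limma 3.58.1 in R 4.3.3, a linear model with a coefficient per group was fitted to all 38408 probe sets without a filter on low values, and 18 comparisons were adjusted by Benjamini-Hochberg within each. Groups came from the labels. The members and lists were chosen with earlier results of these data known. Printed were the 3 members and those group A PP2Cs, receptors, SnRK2 kinases and bZIP factors with a named probe set. Also printed were other list members called in a comparison, the 6 other PP2Cs recognised by name, and the 4 genes most like each member. The fit was also run on simulated arrays with independent noise, which hold no deviations shared by an array or run and so cannot test for them. Alternatives were the 14000 brightest probe sets, only the groups compared, trend and robust estimation, array weights, centring, quantile normalization, label number runs as a block, no minimum fold, and each array left out. The number of arrays limits the precision. Cross-hybridization with related phosphatases was not tested.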

Additional observations from a re-analysis of the deposited data

Results flagged for a closer look

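The response to ABA differed between genotypes in the fit. The response of ost1-2 sal1-8 exceeded that of ost1-2 by 2.53 for ABI1 (limma adjusted p = 0.0396) and by 2.94 for PP2CA (adjusted p = 0.0157) on the log2 scale, with all 3 ABA arrays of the double mutant above all 3 mock arrays. Both calls were lost in a fit of the 4 groups alone and with the run as a fixed block. For ABI1 and PP2CA, double mutant minus ost1-2 was -1.28 and -1.91 in mock leaves and 1.24 and 1.03 after ABA. The excess therefore holds the mock difference as well as the difference after ABA. PP2CA was not called after ABA (limma adjusted p = 0.0626). The wild type response exceeded that of ost1-2 by 2.57 for ABI1, 2.75 for PP2CA and 1.97 for HAB2, values that rest in part on the wild type change by which the genes were picked and are given here as a description. Groups of 2 or 3 arrays are too small for a test of single outlying arrays.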

How the results depend on the processing

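No value of the 3 genes reversed its direction in a called comparison. Under each alternative the wild type response of a gene moved by less than its SD pooled within the 8 groups. Of 528 values from alternatives other than leaving out an array, 19 lost a call and 11 gained it, and of 366 with an array left out 45 lost it and 2 gained it. The cause was not tested, except that fits of only the groups compared rest on fewer arrays and the brightest sets on fewer tests.

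A fit of only the groups compared ended the calls of HAB2 for the response of ost1-2 sal1-8 (1.20), of PP2CA between ost1-2 and wild type mock (1.47), of ABI1, HAB2 and PP2CA between double mutant and ost1-2 mock (-1.28173, -1.16 and -1.91), of the same genes between ost1-2 and wild type after ABA (-1.48, -1.27 and -1.27), of HAB2 between double mutant and wild type after ABA (-0.88), of ABI1 for wild type minus ost1-2 (2.57) and of ABI1 and PP2CA for double mutant minus ost1-2 (2.53 and 2.94). PP2CA between sal1-8 and wild type mock was called among the brightest probe sets by either rule, with trend and robust estimation and with the run as a random block (-0.87 in each), with array weights (-0.99), centring (-1.04) and quantile normalization (-0.93). PP2CA between double mutant and ost1-2 after ABA was called in both brightest sets (1.03) and with array weights (1.03), which ended its call between ost1-2 and wild type mock (1.39). Centring brought the call of HAB2 between sal1-8 and wild type after ABA (-0.75) and ended that of ABI1 between double mutant and ost1-2 after ABA (1.13). The run as a fixed block ended the calls of PP2CA between ost1-2 and wild type mock (1.57), HAB2 between double mutant and wild type after ABA (-0.84) and ABI1 between double mutant and ost1-2 after ABA (1.20), and, for double mutant minus ost1-2, a block chosen after the data were seen, of ABI1 (2.51) and PP2CA (3.13).

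With each array left out in turn, PP2CA ranged from -1.03 to -0.73 between sal1-8 and wild type mock, from 1.30 to 1.65 between ost1-2 and wild type mock and from -0.86 to -0.0897 between double mutant and wild type mock. Between double mutant and ost1-2 mock ABI1 ranged from -1.67 to -0.89 and HAB2 from -1.39 to -0.81. After ABA, ost1-2 minus wild type ranged from -1.82 to -1.14 for ABI1, -1.41 to -1.13 for HAB2 and -1.63 to -0.91 for PP2CA, HAB2 in double mutant minus wild type from -1.11 to -0.71, and ABI1 in double mutant minus ost1-2 from 0.90 to 1.58. The HAB2 response ranged from 1.16 to 1.30 in sal1-8 and from 0.85 to 1.44 in the double mutant. Wild type minus ost1-2 responses ranged from 2.18 to 2.96 for ABI1, 1.78 to 2.16 for HAB2 and 2.39 to 3.11 for PP2CA, and double mutant minus ost1-2 responses from 2.14 to 2.92 for ABI1 and 2.58 to 3.37 for PP2CA.

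Centring shifted all log2 changes by -0.21 (double mutant against wild type after ABA) to 0.15 (wild type minus ost1-2). The number of all probe sets called moved by over 1.5 times in 12 of 18 comparisons fitted on their own groups, 8 with weighted arrays, 8 and 10 in the brightest sets, and 5 of 14 with the fixed block. With only the groups compared it went from 3167 to 618 for the wild type response, 431 to 133 for that of the double mutant, 12 to 0 for that of ost1-2, 2466 to 265 for ost1-2 against wild type after ABA and 54 to 16 for double mutant minus ost1-2. With array weights the response of sal1-8 went from 472 to 1915, that of the double mutant from 431 to 966, that of ost1-2 from 12 to 141 and double mutant minus ost1-2 from 54 to 260. With the fixed block, double mutant minus ost1-2 went from 54 to 7 and wild type minus ost1-2 from 1443 to 572. The groups share no replicate number, so no arrays were paired by number, and runs were the only block.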
